A study of Homo sapiens with 9 samples.

Results

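Copper transport and the copper enzymes are described here through 9 genes, SLC31A1, SLC31A2, ATOX1, CCS, ATP7A, ATP7B, SOD1, CP and COMMD1, chosen by name from the 63677 gene identifiers of each library. All 9 had counts in every library and passed the filter of at least 1 CPM (the count scaled to the size of its library) in at least 2 libraries, as did 18237 genes in all. The cells were HuH-7, a line grown from a human hepatocellular carcinoma, in cultures with 9 conditions of 1 library each. The conditions were 10 mM acetaminophen with 2 mM caffeine, 10 mM acetaminophen with exosomes, 10 mM acetaminophen alone, 2 mM caffeine alone, exosomes alone, arsenic at 5 µM with copper at 5 µM, arsenic at 5 µM, arsenic at 15 µM, and an untreated control. The exosomes came from 1 ml of serum for a set number of cells, and neither the exposure times, the arsenic and copper compounds nor whose serum it was could be read from the labels. Copper was added to no library without arsenic, so copper alone was not analysed here.

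Copper enters liver cells through a trimeric channel in the plasma membrane, and small chaperones then pass it by direct contact to its users, because the free ion is toxic. Some of it goes to P-type ATPases in the Golgi, which load secreted copper enzymes and send excess copper out of the cell, into bile in hepatocytes. The rest goes to the superoxide dismutase of the cytosol and to cytochrome c oxidase in mitochondria, while metallothioneins bind the surplus.

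Promoter sequences were looked up for the 9 genes in RefSeq, as windows running from 250 bases before to 50 bases after a transcript start. Windows were at hand for 6 genes (10 windows in all), and 6 of these hold letters that resemble elements of metal, oxidative or heat stress responses. For each of the 4 genes they belong to, the window with the most matches is shown. These are ATOX1 (GRCh38.p14, chr5:151758582-151758881, minus strand), CCS (chr11:66592935-66593234, plus strand), COMMD1 (chr2:61888475-61888774, plus strand) and ATP7B (chr13:52011959-52012258, minus strand), each 5′ to 3′ on the strand of its gene with matches in capitals.
ATOX1: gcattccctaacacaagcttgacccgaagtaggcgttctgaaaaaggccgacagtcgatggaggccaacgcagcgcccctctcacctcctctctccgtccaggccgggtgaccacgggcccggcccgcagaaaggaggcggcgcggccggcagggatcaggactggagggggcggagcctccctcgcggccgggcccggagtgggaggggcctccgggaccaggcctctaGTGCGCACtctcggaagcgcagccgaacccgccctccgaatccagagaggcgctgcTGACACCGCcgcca
CCS: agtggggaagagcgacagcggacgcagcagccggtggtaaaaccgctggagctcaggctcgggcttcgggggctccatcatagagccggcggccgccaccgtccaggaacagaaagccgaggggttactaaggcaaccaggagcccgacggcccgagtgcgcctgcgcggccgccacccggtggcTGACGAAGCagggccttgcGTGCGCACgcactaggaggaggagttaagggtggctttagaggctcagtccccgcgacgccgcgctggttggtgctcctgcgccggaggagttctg
COMMD1: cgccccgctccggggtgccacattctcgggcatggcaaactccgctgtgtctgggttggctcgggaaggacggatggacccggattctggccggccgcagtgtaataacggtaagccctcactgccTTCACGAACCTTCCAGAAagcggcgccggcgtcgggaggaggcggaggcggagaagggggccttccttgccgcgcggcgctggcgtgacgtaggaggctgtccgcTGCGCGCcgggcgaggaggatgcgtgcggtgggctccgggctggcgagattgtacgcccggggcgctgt
ATP7B: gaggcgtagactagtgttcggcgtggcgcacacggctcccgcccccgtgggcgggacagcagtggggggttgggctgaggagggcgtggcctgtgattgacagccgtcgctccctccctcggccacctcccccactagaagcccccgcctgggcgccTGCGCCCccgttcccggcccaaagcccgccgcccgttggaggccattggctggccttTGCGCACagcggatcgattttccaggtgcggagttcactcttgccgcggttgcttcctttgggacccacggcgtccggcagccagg

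Both strands were searched for the metal response element cores TGCGCNC and TGCACNC, the antioxidant response element core TGACNNNGC and the heat shock element, which is GAA, NN, TTC, NN and GAA in a row. ATOX1 and CCS share the same 8 letters, GTGCGCAC, which read the same on both strands and so match TGCGCNC on each, with the plus-strand match 19 bases before the start in ATOX1 and 45 before it in CCS. Both windows also hold TGACNNNGC, as TGACACCGC in ATOX1 and TGACGAAGC in CCS. The COMMD1 window has a match to the heat shock element on each strand, which overlap, and 1 match to TGCGCNC. The ATP7B window has 2 matches to TGCGCNC, and a further window of COMMD1 has 1. A further window of ATP7B overlaps the one shown, and its 1 match is the same TGCGCCC. Of 35116 such promoter windows, 20% held TGCGCNC, 12.1% TGCACNC, 13.3% TGACNNNGC and 0.49% the heat shock element. The windows of SLC31A1 and ATP7A held none of the 4 motifs, and a match is a description of letters, not a site.

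The libraries ranged from 658725 to 8227906 gene counts (951816 for the control) and were not alike in make-up. The share of counts on small nucleolar RNA genes was 35.5% at 5 µM arsenic and 11.5% with acetaminophen, against 4.86% in the control. In these same 2 treated libraries, levels relative to the mean of all libraries went down with GC content (r across genes -0.39 and -0.48, Pearson). In the arsenic library with copper they went up with it (r 0.31). Levels went down with log2 transcript length in the control (r -0.278) and with acetaminophen and exosomes (r -0.22), beside -0.0746 to 0.175 elsewhere. Ratios of the copper genes are therefore also given with each library's trends on GC content and transcript length removed. Hepatocyte markers (10 of 10 with counts in every library) summed to 9113 to 29230 CPM. Of 8 blood cell markers 1 to 3 had counts, nearly all from LYZ, for a sum of 26.6 to 273 CPM, and of 6 mesenchymal and endothelial markers 4 or 5 had counts, for 22.4 to 60.96 CPM, with PECAM1 at 0 in all libraries. Exons of 6 of the 9 copper genes overlap exons of another protein-coding gene, on the opposite strand for 5 (FKBP15 with SLC31A2, G3BP1 with ATOX1, CCDC87 with CCS, CCT4 with COMMD1, HPS3 with CP) and on the same strand for 1 (PGK1 with ATP7A). Whether the counting used the strand is not stated in the notes used here, and so reads in these overlaps cannot be assigned.

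With no replicates, a gene is called apart between 2 libraries when its ratio was at least 2 either way, with 0.5 counts added to each, and the exact 95% interval of the ratio excluded 1. Such intervals, like the 95% Poisson intervals of single levels, cover counting error only and not the spread between cultures. PCR reads are not independent molecules either. Effects were also tested in an edgeR quasi-likelihood model over all 9 libraries with additive terms, where the departure from additive effects supplies the spread, and p-values were adjusted over all 18237 genes.

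SLC31A1 (chr9:113221562-113264492, GRCh38), the high-affinity copper importer CTR1, varied least of the copper genes. It stood at 87.5 CPM with acetaminophen and caffeine, 65.0 with acetaminophen and exosomes, 88.0 with acetaminophen, 60.7 with caffeine and 80.8 with exosomes, against 46.4 CPM in the control. In the arsenic libraries it stood at 85.5 CPM at 5 µM with copper, 81.9 at 5 µM and 93.5 at 15 µM. Every treated library was above the control, by 1.31 to 2.01 times, yet the gene was apart in none of the 12 library pairs. The SD of its log2 level over the 9 libraries was 0.33, and only 3.69% of 3819 genes within 2-fold of its mean level had a smaller one.

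SLC31A2 (chr9:113150942-113164137), a relative of the importer found in endosomes and lysosomes and known as CTR2, had few counts and moved more than its neighbour SLC31A1. Its levels were 15.1 CPM with acetaminophen and caffeine, 5.10 with acetaminophen and exosomes, 3.52 with acetaminophen, 3.99 with caffeine and 1.497 with exosomes, against 4.84 CPM in the control. At 5 µM arsenic with copper it had 8.55 CPM (23 counts), at 5 µM arsenic 1.28 CPM (3 counts) and at 15 µM 22.7 CPM (63 counts). The highest library was that with 15 µM arsenic, whose counting interval of 17.4 to 28.98 CPM overlapped only that of acetaminophen with caffeine, 12.0 to 18.8 CPM. FKBP15, which overlaps it on the opposite strand, ranged from 37.0 to 75.9 CPM and was also highest at 15 µM arsenic.

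ATOX1 (chr5:151742316-151772532), the chaperone that hands copper to the ATPases, was a low-count gene. It had 19.7 CPM with acetaminophen and caffeine, 19.1 with acetaminophen and exosomes, 2.82 with acetaminophen, 11.1 with caffeine and 12.9 with exosomes, against 18.4 CPM in the control. The arsenic libraries gave 9.29 CPM at 5 µM with copper, 3.84 at 5 µM and 3.24 at 15 µM. The lowest 3 libraries, with acetaminophen and with arsenic alone at both doses, had 4, 9 and 9 counts. Their intervals lay under that of the control, 11.1 to 28.7 CPM. G3BP1, which overlaps ATOX1 on the opposite strand, was highest in 2 of these 3 libraries, at 448 CPM with acetaminophen and 403 at 5 µM arsenic, against 151 CPM in the control. In the same 2 libraries the share of reads set aside as ambiguous between genes was also highest (9.25 and 10.2%, against 3.36% in the control), while at 15 µM arsenic G3BP1 had 153 CPM and the share was 2.85%. The part of this overlap in the ATOX1 values was not tested.

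CCS (chr11:66592821-66606019), the copper chaperone for superoxide dismutase, was better covered, at 100 to 2721 counts. It reached 514 CPM with acetaminophen and caffeine, 156 with acetaminophen and exosomes, 85.9 with acetaminophen, 174 with caffeine and 94.0 with exosomes, against 127 CPM in the control. It had 146 CPM at 5 µM arsenic with copper, 42.6 at 5 µM and 71.2 at 15 µM. The library with both acetaminophen and caffeine stood above all others and that with 5 µM arsenic below all others, without overlap of their counting intervals. CCS is rich in GC (63.1% of its transcript), and these libraries also differ in their trend with GC content.

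ATP7A (chrX:77910656-78050395), the copper ATPase of most tissues outside the liver and the Menkes disease gene, was near the limit of detection, with 2 to 44 counts. Its levels ran from 1.11 CPM at 5 µM arsenic with copper (3 counts) to 6.33 CPM with acetaminophen (9 counts), with 2.90 CPM in the control (3 counts). It was apart in none of the 12 pairs, and differences of this size were not detectable at this depth.

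ATP7B (chr13:51930436-52012125), the copper ATPase of hepatocytes and the Wilson disease gene, was high in both libraries with caffeine. It had 151 CPM with acetaminophen and caffeine, 49.7 with acetaminophen and exosomes, 67.6 with acetaminophen, 157 with caffeine and 66.8 with exosomes, against 50.3 CPM in the control. It had 63.6 CPM at 5 µM arsenic with copper, 43.1 at 5 µM and 64.7 at 15 µM. The 2 caffeine libraries, with intervals of 141 to 162 and 149 to 166 CPM, stood clear of the other 7, which all lay under 82.5 CPM including their intervals.

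SOD1 (chr21:31659622-31668931), the copper and zinc superoxide dismutase of the cytosol, had the widest changes among the well-covered genes. It had 129 CPM with acetaminophen and caffeine, 565 with acetaminophen and exosomes, 47.2 with acetaminophen, 32.4 with caffeine and 224 with exosomes, against 433 CPM in the control. It had 199.6 CPM at 5 µM arsenic with copper, 34.1 at 5 µM and 236 at 15 µM. The libraries with acetaminophen alone, caffeine alone and 5 µM arsenic were the low ones, and each combined treatment was higher than the single treatments in it that were sequenced here. Acetaminophen with exosomes was the highest of all 9. The SD of its log2 level was 1.53, larger than in 96.2% of 1390 genes of like level, and the processed copies SOD1P1, SOD1P2 and SOD1P3 had no counts.

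CP (chr3:149162410-149222055), ceruloplasmin, the ferroxidase that hepatocytes secrete with copper bound, fell into high and low libraries on either side of the control. It had 28.9 CPM with acetaminophen and caffeine, 38.3 with acetaminophen and exosomes, 139 with acetaminophen, 154 with caffeine and 129 with exosomes, against 74.5 CPM in the control. It had 48.3 CPM at 5 µM arsenic with copper, 153.5 at 5 µM and 33.4 at 15 µM. The 4 single treatments with acetaminophen, caffeine, exosomes and 5 µM arsenic were high, and the 3 combined treatments and 15 µM arsenic were low. The interval of the control, 58.8 to 93.1 CPM, overlapped none of theirs. These intervals take no account of the trends on GC content and length, and the CP transcript has 39.1% GC. Its fitted longest transcript trend was log2 -0.282 in the control, 0.428 with acetaminophen and 0.51 at 5 µM arsenic. In the other libraries it ran from -0.281 to 0.0653. With the principal transcript trends removed, CP was not apart from the control with caffeine or at 5 µM arsenic. HPS3, which overlaps CP on the opposite strand, had 21.3 CPM in the control and at most 48.6 CPM elsewhere.

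COMMD1 (chr2:61888724-62147247), a regulator of the trafficking of the copper ATPases, was highest in the control and in both exosome libraries. It had 7.75 CPM with acetaminophen and caffeine, 15.3 with acetaminophen and exosomes, 7.74 with acetaminophen, 5.16 with caffeine and 15.3 with exosomes, against 20.3 CPM in the control. The arsenic libraries were all low, at 4.83 CPM at 5 µM with copper, 4.26 at 5 µM and 5.39 at 15 µM (13, 10 and 15 counts). Its fitted trends on GC content and longest transcript length were log2 0.725 in the control, 0.226 with exosomes and 0.879 with acetaminophen and exosomes. They were negative in all other libraries. With these trends removed 0 of its 5 calls as apart were kept, and 1 with principal transcript trends removed. CCT4, which overlaps COMMD1 on the opposite strand, ranged from 166 to 646.5 CPM.

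**Figure D1:**
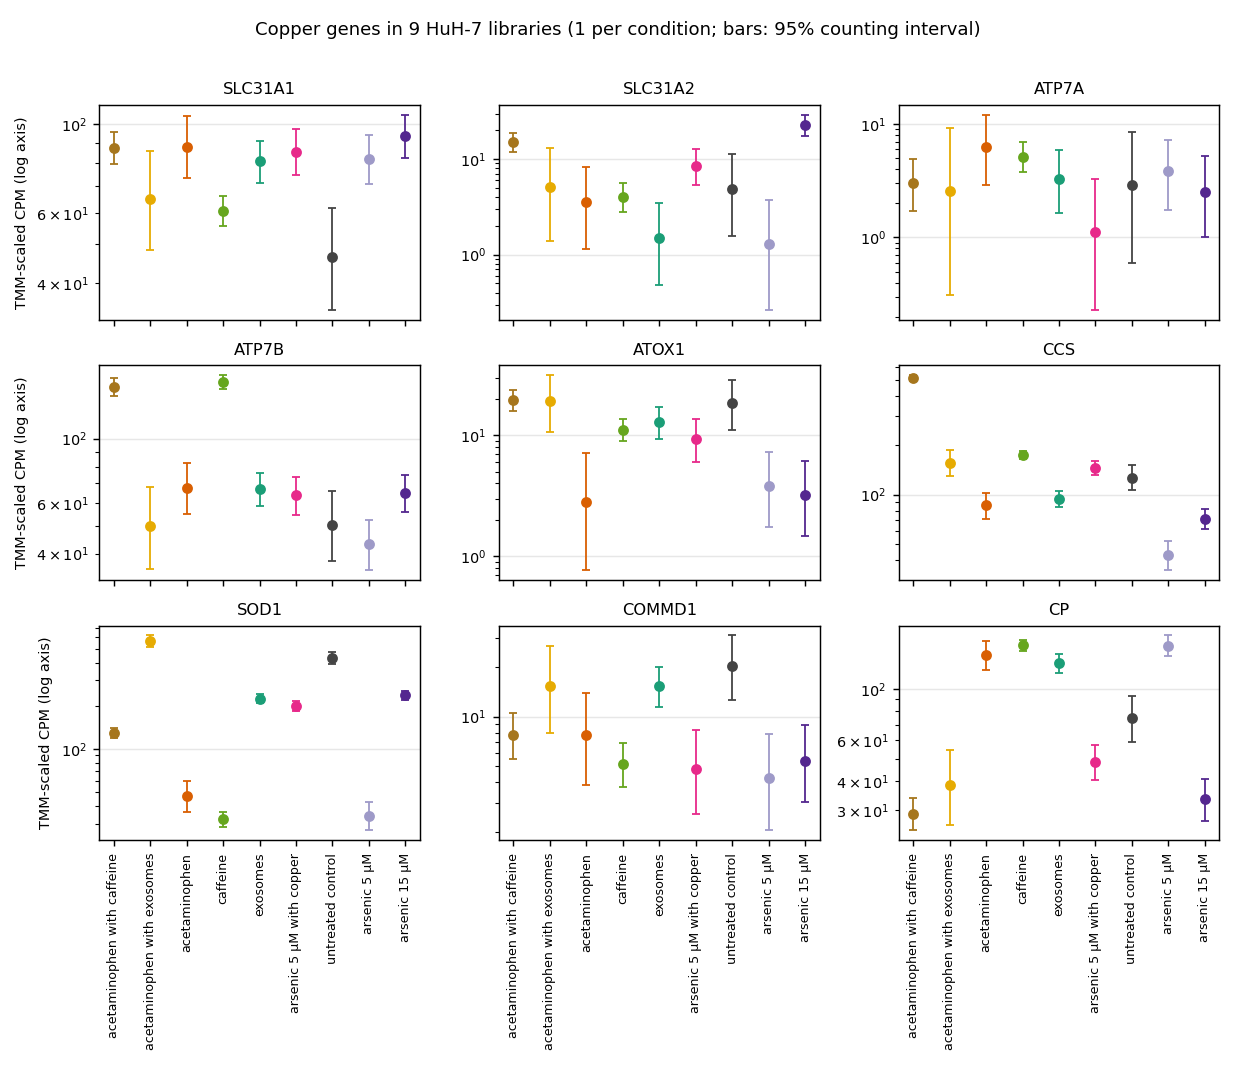
TMM-scaled CPM (log axis) of the 9 copper genes in each of the 9 libraries; points are single libraries and bars their 95% Poisson counting intervals. SLC31A1 varies least and is lowest in the control (46.4 CPM). ATP7B is high in both caffeine libraries (151 and 157 CPM), and CP as counted lies above or below the control (74.5 CPM) in every treated library.

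Levels were compared between genes per kilobase of the principal transcript, a length chosen after the data were seen. SOD1 was the most abundant of the 9 in 6 libraries and CCS in the 3 others, which were those with acetaminophen, caffeine and both. In the control SOD1 had 448 CPM per kb, CCS 88.6, ATOX1 24.5, COMMD1 22.3, CP 15.9, SLC31A1 9.79, ATP7B 7.58, SLC31A2 2.71 and ATP7A 0.342. ATP7A was lowest in all 9 libraries, and the liver ATPase ATP7B stood above it at 7.58 against 0.342 CPM per kb there. SOD1 and CCS stood apart from each other and from the rest in the control. From ATOX1 downward, the counting intervals of neighbours in this order overlap when scaled per kb. The place of ATOX1 rests on the length used: in the control it had 4.24 CPM per kb of the longest transcript and 3.51 per kb of all exons, below ATP7B on both scales. On both of these scales CP led at 5 µM arsenic (32.8 and 21.0 CPM per kb), and ATOX1 was the lowest gene with acetaminophen (0.648 and 0.537).

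**Figure D2:**
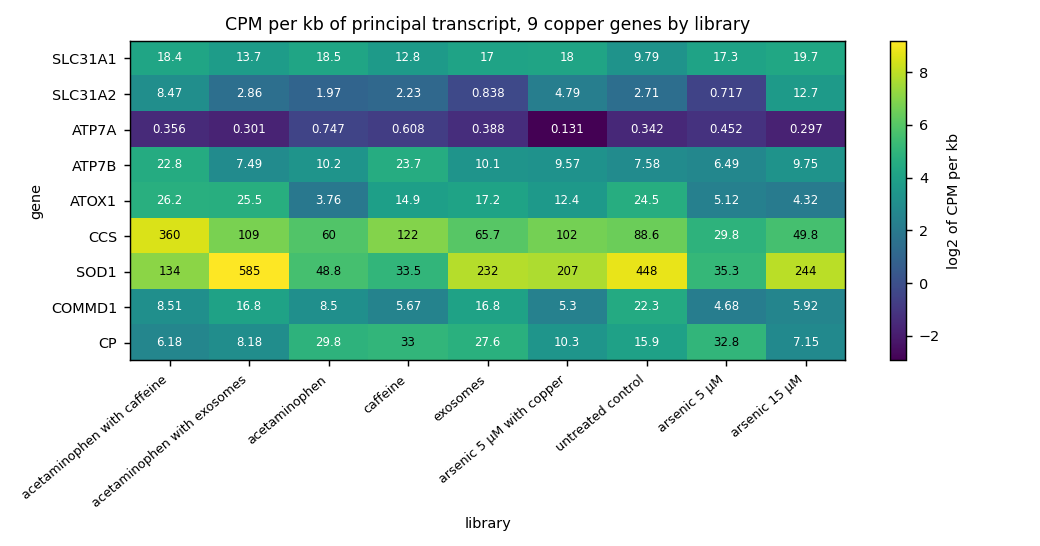
Level of each copper gene in CPM per kb of its principal transcript (number in the cell; colour is its log2), with genes as rows and libraries as columns. SOD1 and CCS lead in every library except that CP comes second at 5 µM arsenic (32.8, against 35.3 for SOD1), and ATP7A is lowest throughout.

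The addition of copper to 5 µM arsenic was the most direct comparison for these genes. Against arsenic alone, 5 of the 9 were apart, 4 higher and 1 lower, while 30.2% of all tested genes were apart between these libraries (16.5% higher and 13.7% lower). The superoxide dismutase and its chaperone were higher, SOD1 by 5.85 times (95% counting interval 4.62 to 7.495) and CCS by 3.42 times (2.74 to 4.30). SLC31A2 was higher by 6.68 times on 23 against 3 counts (2.02 to 34.8), and ATOX1 by 2.42 times on 25 against 9 counts (1.09 to 5.89). The secreted enzyme CP was lower, at 0.315 of its level in arsenic alone (0.256 to 0.386). The importer SLC31A1 (ratio 1.04), the liver ATPase ATP7B (1.48), COMMD1 (1.13) and ATP7A (0.291 on 3 against 9 counts, interval 0.0506 to 1.16) were not apart. With the trends on GC content and principal transcript length removed, SLC31A2 (6.11) and SOD1 (5.93) remained apart, while CCS stood at 1.42, ATOX1 at 1.15 and CP at 0.54. In the edgeR model no copper gene passed for copper, with adjusted p of 1 for all 9 and 0 genes called of 18237 (0 by DESeq2; the unadjusted p was below 0.05 for 428). This term sets the library with copper against both other arsenic libraries and not against the 5 µM one alone.

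The library with arsenic and copper was also set against the untreated control. Here 2 of the 9 were apart, both lower, where 16.3% of all genes were (9.22% higher and 7.11% lower). SOD1 had 199.6 against 433 CPM (ratio 0.461, interval 0.406 to 0.524) and COMMD1 4.83 against 20.3 CPM (0.238, interval 0.109 to 0.498). With the principal transcript trends removed COMMD1 stood at 0.463 and SOD1 at 0.903, which was no longer apart.

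Arsenic alone was given at 5 and 15 µM, and the copper genes did not follow the dose in a common way. At 5 µM, 5 of the 9 were apart from the control, 1 higher and 4 lower, where 31.4% of all genes were (16.4% higher and 15% lower). SOD1 was at 0.0789 of the control, ATOX1 at 0.209, COMMD1 at 0.21 and CCS at 0.336, while CP was higher by 2.06 times. With the principal transcript trends removed SOD1 alone was apart (0.152), and CCS stood at 0.933. At 15 µM, 4 of the 9 were apart from the control, 1 higher and 3 lower, where 30.9% of all genes were (16.5% higher and 14.4% lower). SLC31A2 was higher by 4.68 times (interval 1.90 to 14.9) and ATOX1, COMMD1 and CP were lower, at 0.176, 0.265 and 0.449 of the control. With the trends removed COMMD1 stood at 0.527 and was no longer apart.

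Between the doses, 3 of the 9 genes were apart at 15 against 5 µM, where 37.1% of all genes were (19.6% higher and 17.5% lower). SLC31A2 was higher by 17.7 times (interval 5.79 to 88.2) and SOD1 by 6.91 times (5.48 to 8.83), and CP was lower, at 0.218 (0.172 to 0.274). All 3 were still apart with the trends removed, at 16.0, 7.35 and 0.347. As counted, CP thus stood above the control at the low dose and below it at the high dose. With the principal transcript trends removed, CP was not apart from the control at the low dose. The edgeR term for 15 µM sets the 15 µM library against both other arsenic libraries and not against the 5 µM one alone. For the 15 µM term in edgeR, SLC31A2 had a log2 fold change of 2.18 (SE 0.90, adjusted p = 0.30) and CP of -1.59 (SE 0.864, adjusted p = 0.542). No copper gene passed, against 1.09% of all genes. Without the library with arsenic and copper, the SLC31A2 value was 4.11 with an adjusted p of 0.0216, resting on 63 counts at 15 µM and 3 at 5 µM.

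**Figure D3:**
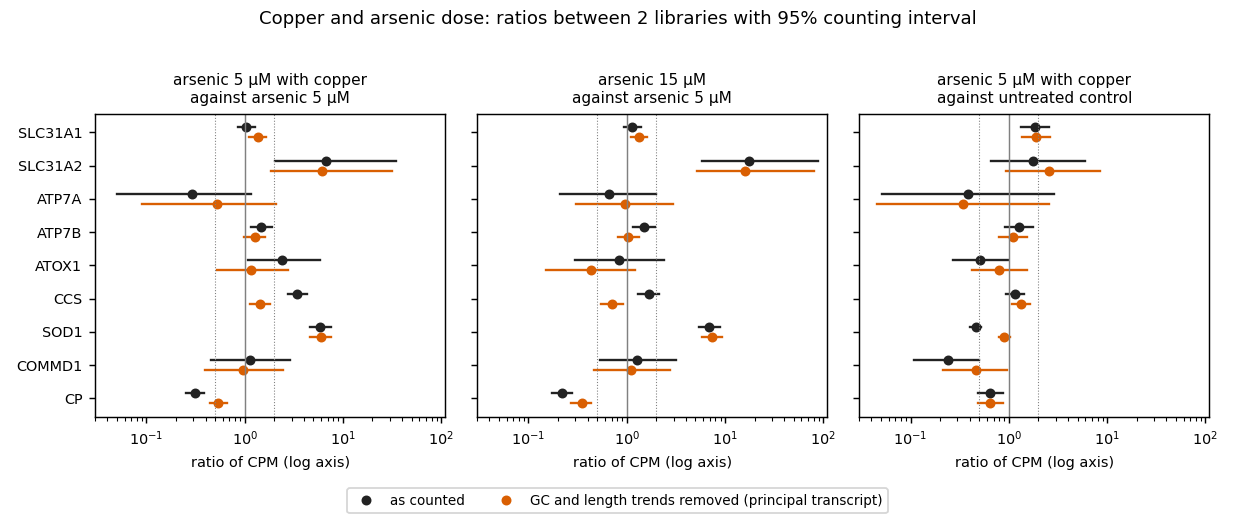
Ratios of CPM between 2 libraries (log axis) for each copper gene, with 95% counting intervals, as counted (black) and with GC content and principal transcript length trends removed (orange); dotted lines mark ratios of 0.5 and 2. SOD1 and SLC31A2 are higher both with copper and at 15 µM than at 5 µM arsenic (5.85 and 6.68, and 6.91 and 17.7), and the CCS ratio with copper moves from 3.42 to 1.42 when the trends are removed.

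Over the 3 arsenic libraries together, none of the 9 passed in the edgeR model, where 0.494% of all genes did. The smallest adjusted p was that of COMMD1 (log2 fold change -1.59, SE 0.761, adjusted p = 0.524). SLC31A2 had 1.94 (SE 1.02, adjusted p = 0.588). The median of the 9 was -0.58, beside 0.07 over all genes tested. It rested on single libraries, standing at 0.10 without the control, -0.17 without acetaminophen and -0.17 without 5 µM arsenic.

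Caffeine was given alone and with acetaminophen. Against the control, 4 of the 9 were apart with caffeine alone, 2 higher and 2 lower, where 20.2% of all genes were (11.6% higher and 8.63% lower). ATP7B was higher by 3.12 times (interval 2.37 to 4.21) and CP by 2.07 times (1.65 to 2.64), and SOD1 was at 0.0749 (0.0642 to 0.0872) and COMMD1 at 0.254 (0.148 to 0.45) of the control. With the principal transcript trends removed ATP7B (2.82) and SOD1 (0.15) were still apart, CP (1.76) and COMMD1 (0.523) were not, and CCS was (2.06). On acetaminophen, 6 of the 9 were apart with caffeine, 5 higher and 1 lower, where 33.8% of all genes were (18.8% higher and 15% lower). The ratios were 6.98 for ATOX1 on 104 against 4 counts, 5.99 for CCS, 4.30 for SLC31A2, 2.74 for SOD1, 2.24 for ATP7B and 0.207 for CP. As counted, ATP7B was the copper gene that was higher with caffeine on both backgrounds, but on acetaminophen it stood at 1.72 with the principal transcript trends removed and was not apart. With those trends removed CCS was higher on both, by 2.55 times on acetaminophen beside 2.06 times on untreated cells. The edgeR caffeine term gave ATP7B a log2 fold change of 1.38 (SE 0.661, adjusted p = 0.675) and CCS 1.49 (SE 0.76, adjusted p = 0.694), and no copper gene passed, against 0.0823% of all genes.

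Acetaminophen was given on 3 backgrounds. Against the control, 3 of the 9 were apart, all lower, where 25.2% of all genes were (13% higher and 12.1% lower). SOD1 had 47.2 against 433 CPM (ratio 0.109, interval 0.083 to 0.141), ATOX1 2.82 against 18.4 CPM (0.153, interval 0.0379 to 0.461) and COMMD1 7.74 against 20.3 CPM (0.381, interval 0.166 to 0.827). With the principal transcript trends removed SOD1 alone remained apart (0.16). On exosomes, 2 of the 9 were apart, where 10.4% of all genes were (5.22% higher and 5.14% lower). SOD1 was higher by 2.52 times (interval 2.24 to 2.84; 1.74 and no longer apart with the trends removed) and CP was at 0.296 (0.198 to 0.43). On caffeine, 4 of the 9 were apart, 3 higher and 1 lower, where 25.6% of all genes were (12.6% higher and 13% lower). SOD1 was higher by 3.99 times, SLC31A2 by 3.79 times and CCS by 2.96 times, and CP was at 0.187 of its level with caffeine alone. These 4 were also apart with the trends removed.

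With acetaminophen, the ratios of SOD1 and of CP lay on opposite sides of 1 on different backgrounds. SOD1 was lower with the drug on untreated cells and higher on exosomes and on caffeine, and CP had a ratio of 1.87 on untreated cells (139 against 74.5 CPM, not apart) and was lower on the other backgrounds. In edgeR models with an extra term, added after these ratios were seen, acetaminophen by caffeine gave SOD1 a log2 value of 2.90 (SE 1.56, adjusted p = 1) and CP -2.01 (SE 1.38, adjusted p = 1). Acetaminophen by exosomes gave SOD1 1.91 (SE 1.70, adjusted p = 1). For the acetaminophen term itself no copper gene passed, against 0.0219% of all genes, and CP had a log2 fold change of -1.15 (SE 0.695, adjusted p = 1).

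**Figure D4:**
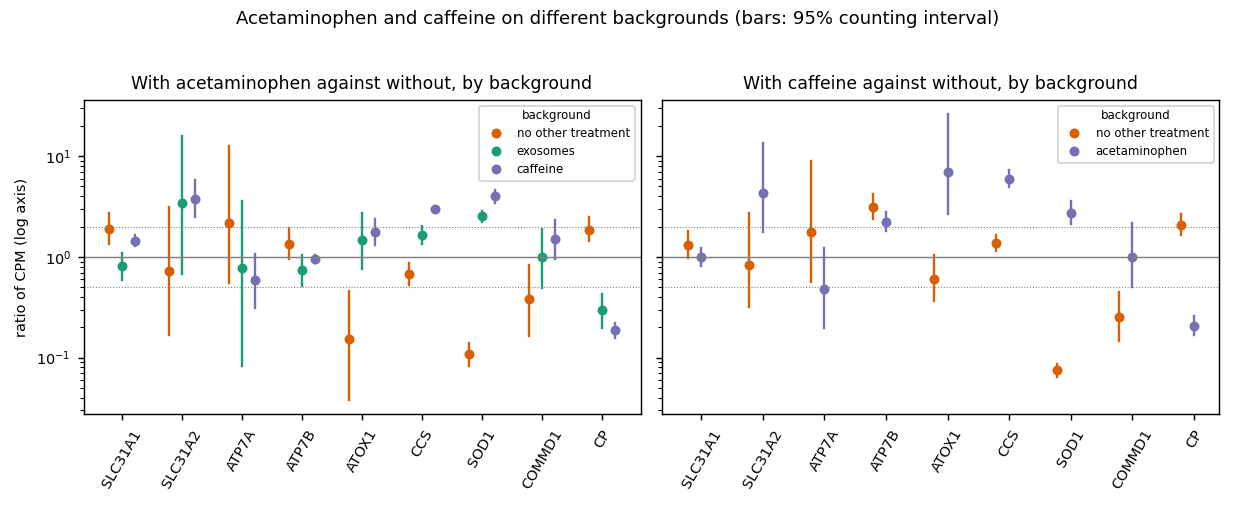
Ratios of CPM (log axis) for each copper gene with acetaminophen against without it on 3 backgrounds (left) and with caffeine against without it on 2 (right); bars are 95% counting intervals and dotted lines mark 0.5 and 2. SOD1 lies at 0.109 on untreated cells but at 2.52 on exosomes and 3.99 on caffeine, and CP lies at 1.87, 0.296 and 0.187.

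Exosomes were given alone and with acetaminophen. With exosomes alone none of the 9 was apart from the control, where 5.01% of all genes were (3.57% higher and 1.44% lower). The SOD1 ratio was 0.518 (interval 0.46 to 0.584), that of CP 1.73 (1.36 to 2.24) and that of SLC31A1 1.74 (1.28 to 2.42). On acetaminophen, 3 of the 9 were apart with exosomes, 2 higher and 1 lower, where 19.1% of all genes were (10.2% higher and 8.89% lower). SOD1 was higher by 12.0 times (565 against 47.2 CPM) and ATOX1 by 6.79 times (15 against 4 counts), and CP was at 0.275. With the principal transcript trends removed ATOX1 stood at 2.01 and was no longer apart, while its call held with longest transcript trends removed. The edgeR exosome term called 0 of 18237 genes (0 by DESeq2; the unadjusted p was below 0.05 for 113), with adjusted p of 1 for all 9 copper genes.

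Across the 12 library pairs, which share libraries and are not independent, the 9 genes were called apart 41 times. SOD1 was apart in 10 pairs (6 higher, 4 lower), CP in 9 (2 higher, 7 lower), ATOX1 in 6, SLC31A2 in 5, all higher, COMMD1 in 5, all lower, CCS in 4 and ATP7B in 2. With the principal transcript trends removed, 25 of the 41 calls kept their direction and 1 was added. All 5 calls of SLC31A2, 8 of SOD1 and 6 of CP were kept, but 2 of 6 for ATOX1, 2 of 4 for CCS and 1 of 5 for COMMD1. With longest transcript trends removed instead, 28 calls were kept, among them all 6 of ATOX1 but 0 of COMMD1. The loss of ATOX1 calls thus rests on the transcript used.

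Other genes of copper handling were followed as lists, of which no copper gene above is a member. Library pairs of all lists are given as counted only, without the trends on GC content and length removed. The 5 µM arsenic libraries with and without copper differ in these trends, and the part of the trends in the list values was not tested. Metallothioneins, the small cysteine-rich proteins that bind copper and zinc, had the widest levels. Their summed level was 711 CPM at 5 µM arsenic with copper, against 173 CPM at 5 µM alone, and 6 of 8 tested members were higher and 0 lower, where 30.2% of all genes were apart (16.5% higher and 13.7% lower). MT2A had 291 against 23.0 CPM, MT1G 23.0 against 4.26 CPM and MT1E 189 against 56.7 CPM. At 15 µM arsenic the sum was 1105 CPM, against 123 CPM in the control, and 7 of 8 were higher, with MT1X at 95.3 against 1.94 CPM, where 30.9% of all genes were apart (16.5% higher and 14.4% lower). The list has 11 members, of which MT1H, MT3 and MT4 did not pass the count filter. MT1B, among the 7, passed that filter only through arsenic libraries. It had 17 counts at 15 µM and 0 in every library without arsenic. Members of this family are near-identical copies, and the split of reads between them is uncertain. The summed level was 10.2 CPM with acetaminophen and caffeine, 16.2 with acetaminophen and 2.46 with caffeine. In the edgeR arsenic term MT1X (log2 fold change 5.43, SE 1.05, adjusted p = 0.0129) and MT1G (5.98, SE 1.43, adjusted p = 0.0424) rose. Both calls were lost without the control (adjusted p = 0.26 for MT1X and 0.269 for MT1G), without the acetaminophen library (0.136 and 0.321) and with protein-coding genes alone (0.0927 and 0.157). Of 15 alternative settings, MT1X passed in 12 and MT1G in 8. The MT1G call was also lost without exosomes (0.0803), acetaminophen with exosomes (0.0742) or 15 µM arsenic (0.0511) and with DESeq2 size factors (0.0972). MT1G had 0 to 7 counts in the libraries without arsenic, so its fold is imprecise.

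Metalloreductases, alternative uptake and copper-binding proteins numbered 14 tested genes, of which 4 were higher and 3 lower with copper added to 5 µM arsenic (all genes: 16.5% higher and 13.7% lower). CUTA, a homologue of a bacterial divalent cation tolerance protein, had 34.6 against 5.12 CPM, the glutaredoxin GLRX 21.9 against 5.97 CPM, and MTF1, the metal-sensing transcription factor of the metallothionein genes, 14.9 against 41.8 CPM. At 15 µM arsenic 3 were higher than in the control and 1 lower (all genes: 16.5% higher and 14.4% lower), with PRNP, the copper-binding prion protein, at 280.1 against 7.74 CPM and MTF1 at 20.9 against 7.74 CPM, while the reductase STEAP3 had 6.11 against 21.3 CPM. PRNP rose in the edgeR arsenic term (log2 fold change 4.41, SE 0.969, adjusted p = 0.0217) and in the 15 µM term (3.19, SE 0.765, adjusted p = 0.00766). The arsenic call was lost without the control (adjusted p = 0.269), without acetaminophen (0.247), without 15 µM arsenic (0.138), with protein-coding genes alone (0.143) and with DESeq2 size factors (0.0774). The call for 15 µM was lost without 5 µM arsenic (0.174), exosomes (0.0682), acetaminophen with exosomes (0.0709) or caffeine (0.0544).

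Of the other copper enzymes and their relatives, 12 were tested, and 4 were higher and 2 lower with copper added to 5 µM arsenic (all genes: 16.5% higher and 13.7% lower), among them the lysyl oxidase relative LOXL4 (12.6 against 5.97 CPM) and the peptide-amidating enzyme PAM (40.5 against 84.0 CPM). At 15 µM arsenic 2 were higher and 2 lower than in the control, near the 30.9% of all genes apart, with LOXL2 at 30.6 against 3.87 CPM and coagulation factor F5 at 8.27 against 45.5 CPM. HEPH, the membrane-bound relative of ceruloplasmin, had 0.372 CPM at 5 µM arsenic with copper, 2.56 at 5 µM and 0.719 at 15 µM (1, 6 and 2 counts), and 12.6 CPM in the control. It fell in the edgeR arsenic term (log2 fold change -3.79, SE 0.882, adjusted p = 0.0335), a call that held in 8 of 15 alternative settings. It was lost with protein-coding genes alone (adjusted p = 0.119) and DESeq2 size factors (0.0677), and without the control (0.269), acetaminophen (0.164), exosomes (0.0659), acetaminophen with exosomes (0.0606) or arsenic with copper (0.0699). Its highest level, 104 CPM, was in the caffeine library.

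Genes that deliver copper to cytochrome c oxidase were listed together with its own subunits MT-CO1 and MT-CO2 (13 tested). With copper added to 5 µM arsenic 3 were higher and 1 lower, near the 30.2% of all genes apart. The copper-binding assembly factor SCO2 had 20.1 against 2.56 CPM, the mitochondrial phosphate and copper carrier SLC25A3 629 against 279.7 CPM and COA6 7.80 against 26.0 CPM. At 15 µM arsenic 1 was higher and 5 lower than in the control (all genes: 16.5% higher and 14.4% lower), with COX19 at 61.1 against 11.6 CPM and COA5 at 9.35 against 31.9 CPM. None of the 13 passed in any edgeR term. The COMMD proteins and their partners of the CCC complex, which sorts ATP7A and ATP7B in endosomes, had 15 tested genes without COMMD1. With copper added 3 were higher and 5 lower (all genes: 16.5% higher and 13.7% lower), COMMD4 at 78.4 against 17.5 CPM and COMMD10 at 1.86 against 7.25 CPM. At 15 µM arsenic 4 were higher and 3 lower than in the control (all genes: 16.5% higher and 14.4% lower), CCDC93 at 280.1 against 28.1 CPM and COMMD8 at 7.19 against 36.8 CPM. Of 11 lipoylated enzymes and genes of copper toxicity, 1 was lower with copper added (GCSH, 9.29 against 22.6 CPM) and 2 were lower at 15 µM arsenic than in the control, with PDHA1 at 34.9 against 91.9 CPM, where 30.2% and 30.9% of all genes were apart. No member of the last 2 lists passed in any edgeR term.

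Genes that respond to arsenic were also followed as a list. It was chosen with earlier results of these data known and is no independent check of the labels. Of 10, 9 were higher at 15 µM arsenic than in the control, where 16.5% of all genes were, with heme oxygenase HMOX1 at 5118 against 31.9 CPM. At 5 µM arsenic 6 were higher and 1 lower (all genes: 16.4% higher and 15% lower), the lower one being DNAJB1 at 70.8 against 168 CPM. In the edgeR arsenic term 5 rose, where 0.494% of all genes were called, but all 5 calls were lost without the control or without acetaminophen, and 4 of them with protein-coding genes alone. Hepatocyte markers moved beside the copper genes: 7 of 10 were lower at 15 µM arsenic than in the control and none higher (all genes: 16.5% higher and 14.4% lower), with FGB at 82.7 against 769 CPM, TTR at 38.1 against 243 CPM and AFP at 1470 against 5907 CPM. Between arsenic with copper and arsenic alone 3 were higher and 1 lower (all genes: 16.5% higher and 13.7% lower). Among the higher ones APOA1 had 368 against 143 CPM and TTR 95.1 against 40.5 CPM. The lower one was ALB, at 5024 against 10860 CPM. The part of these changes in the levels of CP and ATP7B, which hepatocytes also express, was not tested.

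The genes whose pattern over the 9 libraries was most like a copper gene were found by Pearson's r of log2(CPM + 1) among the 9004 protein-coding genes whose mean level reached 10 CPM, given without a p because they share libraries and base composition. For CCS they were TCIRG1 (0.987), PRADC1 (0.983) and SH3GLB2 (0.979), and for SOD1 YBX1 (0.961), ERP29 (0.958) and TMSB10 (0.957). For CP they were SOX6 (0.962), ZNF343 (0.958) and NOL11 (0.947), and for ATP7B ERV3-1 (0.975), SUSD2 (0.957) and SIPA1L1 (0.952). ATOX1 was most like DUS1L (0.959), ATP5IF1 (0.957) and MECR (0.956), and SLC31A1 like ZNF675 (0.925), DOCK11 (0.923) and PPP3CA (0.911). No other copper gene was among the 3 nearest of any of these 6.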

How the data were processed

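Total RNA depleted of ribosomal RNA was sequenced on an Ion Torrent Proton, per the labels. Per library the authors deposited 1 file of raw counts by Ensembl gene identifier, made with TopHat2 2.0.13 on GRCh37 and HTSeq 0.6.1, per the submitters' processing notes. Neither the annotation release nor the strand setting is stated there. HTSeq summary lines (42.3 to 70.3% of the reads) were left out. GENCODE 29 (GRCh38) gave symbols for 52526 of 63677 identifiers, with lengths, GC content and gene coordinates.

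Genes reaching 1 CPM in 2 or more of the 9 libraries were tested with edgeR 4.0.16 (R 4.3.3; TMM; quasi-likelihood F test; terms acetaminophen, exosomes, caffeine and arsenic; 4 residual degrees of freedom; common dispersion 0.283) with Benjamini-Hochberg adjustment over all 18237. Copper and arsenic at 15 µM were extra terms. The SE given is the absolute log2 fold change divided by the square root of F. Ratios of 12 library pairs used TMM-scaled CPM and exact conditional binomial intervals. Trends of log2 level on GC content and log2 length were natural splines (4 degrees of freedom each) fitted per library. Fits and ratios were tested on simulated data. Genes at 0 to 3 counts have imprecise ratios.

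The copper genes and the lists were chosen with earlier results of these data known. Named genes are all 9, list members past a test, and the 3 largest ratios per list (mean of at least 5 CPM) for arsenic with copper against arsenic 5 µM and for arsenic 15 µM against the control, of which a part is named. Pattern neighbours are the 3 with the highest r.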

Additional observations from a re-analysis of the deposited data

Results flagged for a closer look

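The ratios of SOD1 lay on opposite sides of 1 under the same drug on different backgrounds. With acetaminophen its ratio was 0.109 on untreated cells, 2.52 on exosomes and 3.99 on caffeine. With the principal transcript trends removed, the ratio on exosomes was no longer apart. With caffeine it was 0.0749 on untreated cells and 2.74 on acetaminophen. The edgeR test of acetaminophen by caffeine, added after the data were seen, gave SOD1 a log2 value of 2.90 (adjusted p = 1), and that of acetaminophen by exosomes 1.91 (adjusted p = 1).

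The ratios of CP lay on opposite sides of 1 with caffeine, at 2.07 on untreated cells and 0.207 on acetaminophen, and the edgeR value of acetaminophen by caffeine was -2.01 (adjusted p = 1). It also lay on opposite sides of the control by arsenic dose, at 2.06 for 5 µM and 0.449 for 15 µM, as counted. With the principal transcript trends removed, neither its 2.07 with caffeine nor its 2.06 at 5 µM stayed apart. The edgeR term for 15 µM gave CP -1.59 (adjusted p = 0.542). Each condition was 1 library, and no group was large enough to look for a library far from its replicates.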

How the results depend on the processing

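No paired analysis was possible because each condition is 1 library and the labels give no replicate numbers. Over 12 pairs, 39 of the 41 calls of a copper gene as apart kept their direction with DESeq2 size factors and 40 with protein-coding genes alone. All 108 ratios moved by less than their counting interval under both. With GC content and length trends removed, 28 were kept with the longest transcript and 25 with the principal transcript, an alternative chosen after seeing the data. CCS at 5 µM arsenic against the control turned from 0.336 to 1.01 with longest transcript trends removed; the CCS transcript is 63.1% GC.

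Counts of copper genes apart, by longest and then principal transcript trends removed, were 2 and 1 for arsenic 5 µM against the control, 1 and 1 for arsenic 5 µM with copper against the control, 3 and 2 for arsenic 5 µM with copper against arsenic 5 µM, and 1 and 1 for acetaminophen with exosomes against exosomes. For acetaminophen against the control the count was 1 with principal transcript trends removed. At a ratio of at least 1.5 it was 5 there, 3 for exosomes, 7 for arsenic 15 µM and 5 for arsenic 5 µM with copper, each against the control. For exosomes against the control it was 1 with DESeq2 size factors and 1 with protein-coding genes alone.

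Genes called in the edgeR terms moved widely. With no count filter they were 46 for acetaminophen, 49 for caffeine and 269 for arsenic. DESeq2 called 49, 51, 170 and, for arsenic 15 µM, 96. With protein-coding genes alone the counts were 2, 3, 1 and 49. With longest transcript trends removed they were 54, 52, 145 and 660, and with principal transcript trends removed 56, 51, 147 and 679. DESeq2 size factors gave 7 for caffeine and 24 for arsenic. With each library left out in turn, the counts ran from 0 to 179 for acetaminophen, 0 to 3 for exosomes, 0 to 221 for caffeine, 0 to 778 for arsenic, 0 to 52 for copper and 19 to 767 for arsenic 15 µM. The highest came without arsenic 5 µM for the first 4 of these. The copper genes called stayed at 0 in all terms and settings, except 1, SLC31A2, for arsenic 15 µM without the library with arsenic and copper (log2 fold change 4.11). The causes were not tested. Depth limits ATP7A, SLC31A2, ATOX1 and COMMD1, whose lowest libraries had 2, 3, 4 and 10 counts.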
